A study of Mus musculus with 6 samples.

Results

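The mitochondrial fatty acid oxidation genes described here are 31 genes picked by symbol from the 21829 genes of the expression table. They cover the carnitine shuttle, the enzymes of beta-oxidation, the electron transfer flavoproteins, and genes of control and side reactions. All 31 were in the table and all 31 had a mean of at least 1 FPKM, the filter for testing, as did 12539 genes in all. FPKM counts sequenced fragments scaled by transcript length and by library total. The tissue was mouse epididymal white adipose tissue, a visceral fat depot. Its RNA was sequenced in 3 libraries labelled ZFP251 KO and in 3 libraries of wild-type (WT) littermates. Every mouse was a C57BL/6J male, 20 weeks old and fed a normal diet. The labels do not give the knockout allele or the cells in which it acts. Whether each library came from its own mouse is not said, so the p-values rest on a spread between libraries that may be partly technical.

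Long-chain fatty acids enter the mitochondrial matrix as carnitine esters and are then shortened by repeated cycles of oxidation, hydration, oxidation and thiolysis. Each cycle yields acetyl-CoA, and the electrons of its first oxidation pass through the flavoproteins ETF and ETF dehydrogenase to the respiratory chain. White fat cells mainly store and release fatty acids and burn comparatively few of them. Malonyl-CoA, the first product of fatty acid synthesis, inhibits the carnitine palmitoyltransferases at the outer membrane, and the nuclear receptor PPARalpha switches on many genes of the pathway.

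The targeted gene went against the labels. Zfp251 had 6.48, 5.86 and 6.48 FPKM in libraries 1, 2 and 3 labelled KO, and 3.73, 3.56 and 2.95 FPKM in libraries 1, 2 and 3 of WT (values per library keep this order below), and an exact permutation test, two-sided, gave p = 0.1, the smallest that 3 libraries against 3 allow. Its log2 difference was 0.72 (SE 0.12, limma adjusted p = 0.223, and under 0.05 with library weights or without WT 1). Directions below therefore refer to libraries by their label. The FPKM of all genes summed to between 426966 and 439354 in the libraries labelled KO, and to between 468499 and 637902 in WT, with the highest sum in WT 3. Defining adipocyte genes were abundant in every library, and the 12 adipocyte markers held between 8.93% and 14.9% of the FPKM sum. WT 3 also stood apart: it alone held more than 1 FPKM of Ckm (10.3 FPKM), the creatine kinase of skeletal muscle. The summed level of 10 skeletal muscle markers was 19.8, 12.0 and 9.94 FPKM in the libraries labelled KO 1, KO 2 and KO 3, and 21.5, 26.8 and 100.3 FPKM in WT 1, WT 2 and WT 3. In every library but WT 3 most of this sum was the single marker Acta1. It had 17.3, 9.36 and 7.73 FPKM in the libraries labelled KO, and 19.0, 25.1 and 32.1 FPKM in WT. Myh4, a myosin of fast muscle fibres, was listed at 0 in all libraries but WT 3.

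Sequences at the transcript starts are shown for 5 genes on which the results below turn. These are Cpt1a, which had higher values in the libraries labelled KO, its partner Cpt2, Eci1, which had the largest difference, and the trifunctional protein pair Hadha and Hadhb. The sequences are from RefSeq on GRCm38.p6, 5′ to 3′ on the gene's strand, and lie outside GENCODE exons. Capitals mark a GC box core (GGGCGG on either strand) or a nuclear receptor hexamer (AGGTCA on either strand).
Cpt1a, chr19:3323085-3323284, plus strand: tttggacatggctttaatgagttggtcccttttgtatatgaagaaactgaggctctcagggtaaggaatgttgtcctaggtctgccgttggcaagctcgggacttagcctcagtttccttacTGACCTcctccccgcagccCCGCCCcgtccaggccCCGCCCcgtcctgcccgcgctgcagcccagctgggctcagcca
Cpt2, chr4:107923611-107923810, minus strand: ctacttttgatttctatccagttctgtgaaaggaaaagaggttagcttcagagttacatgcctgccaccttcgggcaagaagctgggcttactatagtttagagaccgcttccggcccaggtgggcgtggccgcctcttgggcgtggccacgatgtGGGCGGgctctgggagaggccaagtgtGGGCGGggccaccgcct
Eci1, chr17:24426433-24426632, plus strand: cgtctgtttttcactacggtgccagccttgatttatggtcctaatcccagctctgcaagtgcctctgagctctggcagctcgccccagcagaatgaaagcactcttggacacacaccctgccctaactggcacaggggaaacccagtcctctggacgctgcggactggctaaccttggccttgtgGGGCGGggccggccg
Hadha and Hadhb, chr5:30155163-30155247, plus strand: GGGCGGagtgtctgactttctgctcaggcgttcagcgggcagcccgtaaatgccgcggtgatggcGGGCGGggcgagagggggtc
The Cpt1a stretch lies before the RefSeq start but inside the GENCODE gene body, between exons, since GENCODE also has a Cpt1a transcript that starts farther upstream. It holds 2 GC box cores and 1 hexamer, the Cpt2 stretch 2 cores and the Eci1 stretch 1 core. The last sequence is the whole gap of 85 bases between the gene bodies of Hadha, on the minus strand, and Hadhb, on the plus strand, and it holds 2 GC box cores. The GENCODE gene bodies span 3322334 to 3385733 for Cpt1a, 107903981 to 107923610 for Cpt2 and 24426641 to 24439348 for Eci1. Hadha spans 30118304 to 30155162 and Hadhb 30155248 to 30184593.

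Promoter windows of 300 bases, from 250 before to 50 after the RefSeq start, were found for 25 of the 31 genes. Those without a window were Acaa2, Acad9, Acot13, Cpt1b, Crat and Decr1. The GC box core GGGCGG was present in 18 of the 25 windows (72.0%), against 35.7% of all 32851 windows of the RefSeq set. That set was not limited to the genes tested here, nor matched to the 25 in level or base composition. The hexamer AGGTCA was present in 5 of 25 (20.0%), in Acadm, Acadvl, Cpt1a, Echs1 and Ucp3, against 16.3% of all windows. The longer elements DR1, the direct repeat bound by PPAR and RXR, and TNAAGGTCA, bound by the estrogen-related receptors, were in none of the 25, against 0.381% and 1.28% of all windows. The hexamer can form part of either. These are matches of letters on either strand, not measured binding.

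The genes as a group had lower values in the libraries labelled KO, but none passed the adjusted threshold. Of 31 genes 28 had a negative log2 difference (59.2% of all tested genes did). The median was -0.39, against -0.053 over all tested genes, and single values ran from -0.71 for Eci1 to 0.43 for Cpt1a. All tested genes are not matched to the 31 in level or length. Among genes averaging at least 5 FPKM, 26 of 28 oxidation genes were lower, against 65.5% of all genes at that level. Limma's Benjamini-Hochberg adjusted p lay between 0.223 and 0.980 for the 31 genes, and 0 of 12539 genes passed 0.05 (0%). At an unadjusted p under 0.05, 11 genes were lower and 1 was higher (4.43% and 9.13% of all tested genes). The 2 groups did not overlap in 16 genes. In 15 of them every library labelled KO lay below every WT library (12.2% of tested genes), and in Cpt1a every one lay above (10.1%). The 31 genes together held 0.452%, 0.467% and 0.478% of the FPKM sum in the libraries labelled KO 1, KO 2 and KO 3, and 0.503%, 0.502% and 0.571% in WT 1, WT 2 and WT 3, so these shares did not overlap either. In whole tissue, fewer fat cells and less of these RNAs per fat cell cannot be told apart.

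**Figure D1:**
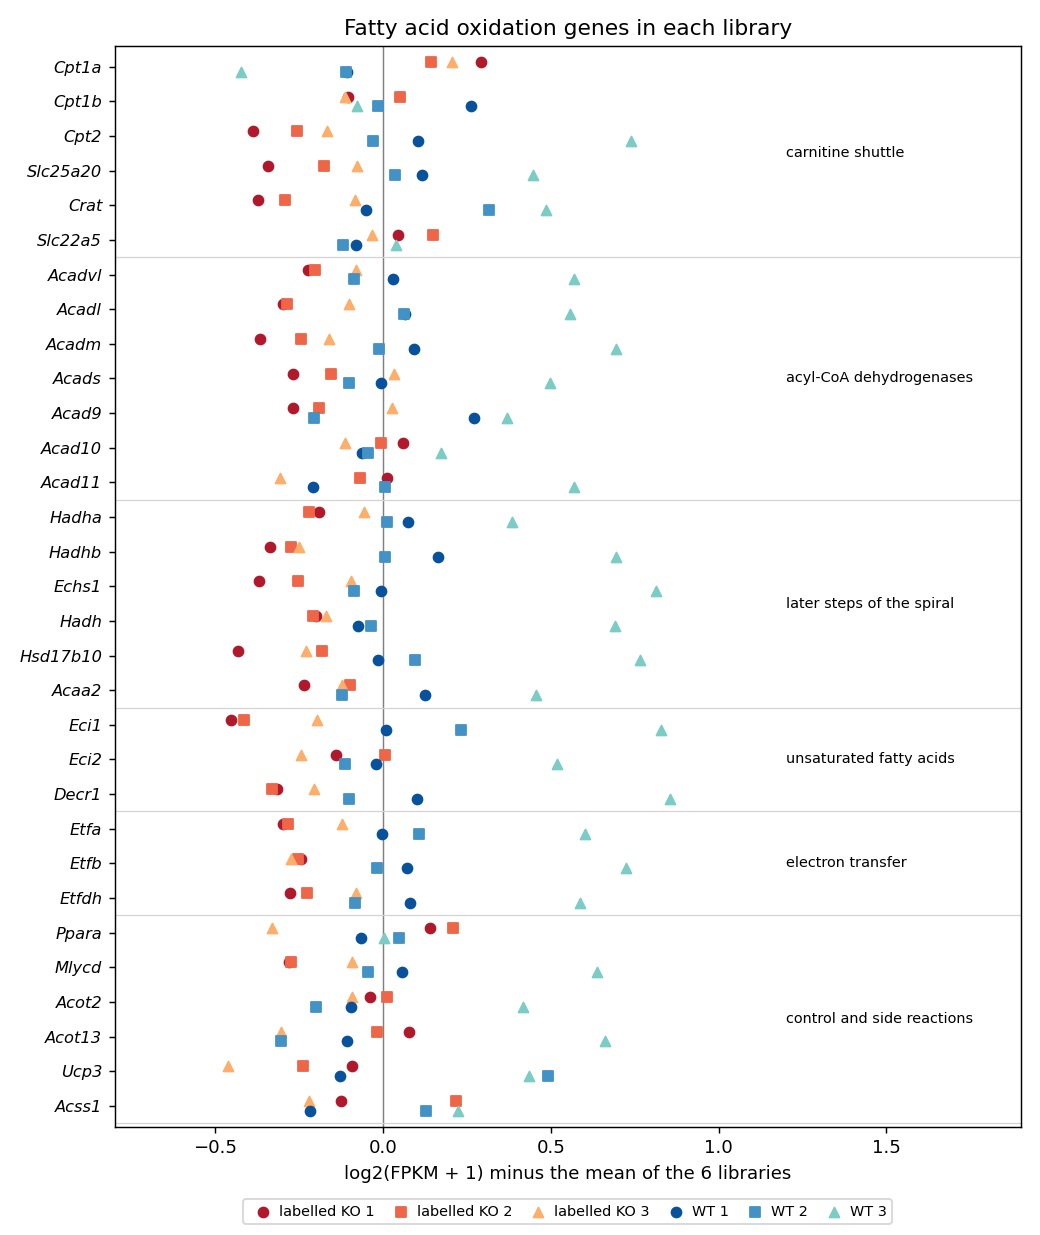
Level of each of the 31 fatty acid oxidation genes in each library, as log2(FPKM + 1) minus the mean of the 6 libraries, with the libraries labelled KO in red shades just above the WT libraries in blue shades. WT 3 is the rightmost point in 26 rows, and Cpt1a is the row in which every library labelled KO lies right of every WT library.

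Part of this difference rested on WT 3, which was the highest of all 6 libraries in 26 of the 31 genes (40.3% of all tested genes). Without WT 3 the median was -0.19, against -0.034 over all tested genes, and 24 of 31 genes were lower. Every library labelled KO was below both WT 1 and WT 2 in 15 genes (17.9% of tested genes), which are necessarily the 15 above. At an unadjusted p under 0.05, 11 genes were lower and 1 was higher without WT 3 (5.67% and 8.01% of tested genes). That count of lower genes was 1 without KO 1 or without KO 2 (1.4% and 1.5% of tested genes), 5 without KO 3 (3.81%), 16 without WT 2 (8.38%) and 8 with quantile normalization (6.32%). Leaving out any other library gave medians from -0.33 to -0.47. Median-ratio scaling gave -0.34 and quantile normalization -0.21, and no scaling turned the direction of the median. When limma estimated a weight for each library, 8 of the 31 genes passed the adjusted threshold. Cpt2, Slc25a20, Acadl, Acadm, Hadhb, Eci1 and Decr1 were lower (3.66% of all tested genes passed as lower) and Cpt1a was higher (4.08%), with adjusted p between 0.0390 and 0.0491.

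**Figure D2:**
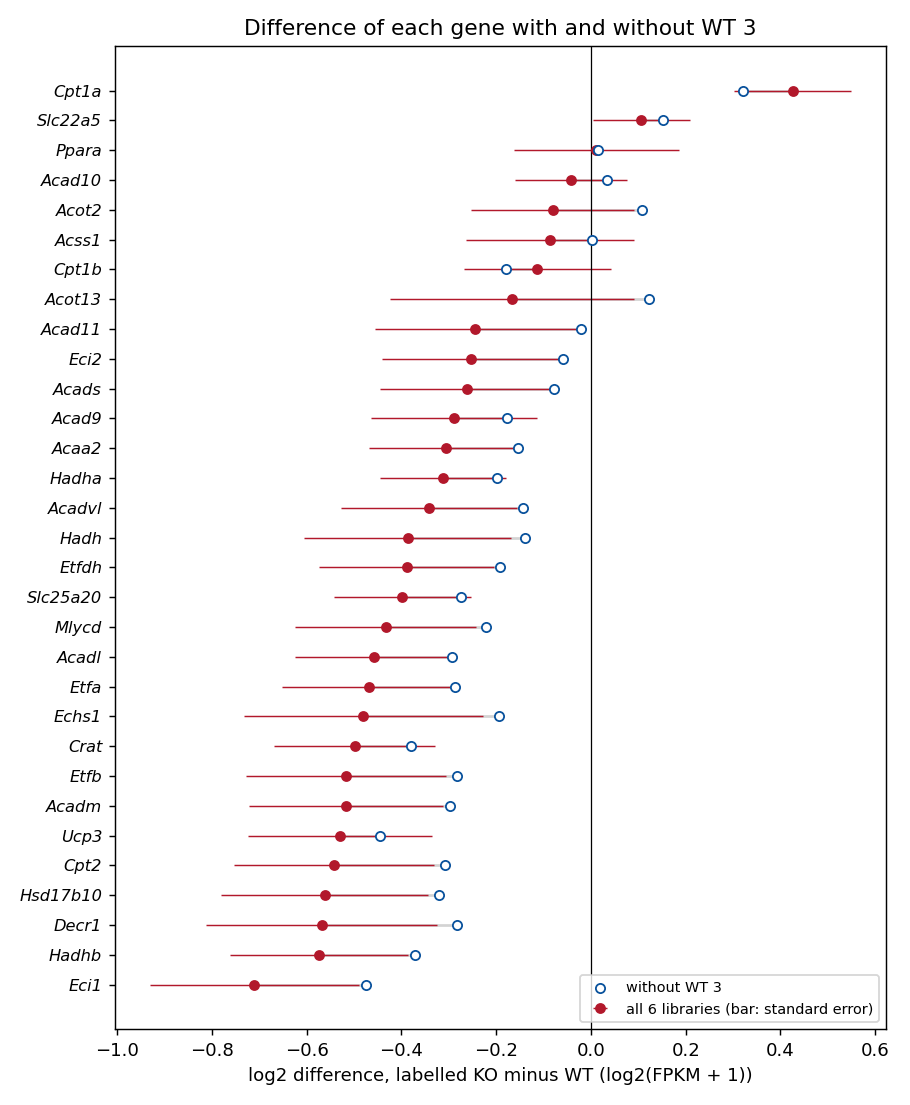
Log2 difference of each gene, libraries labelled KO minus WT, over all 6 libraries (filled, with the standard error from limma) and without WT 3 (open). The open points lie closer to 0 for most genes, and the median is -0.19 without WT 3 and -0.39 with it, while Cpt1a has 0.32 without it.

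The carnitine shuttle, which brings long-chain fatty acids into the matrix, had the widest range of log2 differences among the steps, from -0.54 to 0.43. Cpt1a encodes the liver-type carnitine palmitoyltransferase of the outer membrane, the main control point of entry. It had 36.5, 32.9 and 34.4 FPKM across the libraries labelled KO, and 27.5, 27.4 and 21.9 FPKM across WT. All libraries labelled KO were above all WT libraries, with a log2 difference of 0.43 (SE 0.12, limma unadjusted p = 0.0112, adjusted p = 0.223). Cpt1b encodes the muscle-type form of the same enzyme and was the lowest of the 31 genes. It had 1.70, 2.00 and 1.68 FPKM in KO-labelled libraries and 2.48, 1.87 and 1.75 FPKM in WT libraries, and the groups overlapped. The share of Cpt1a in the summed FPKM of both genes was 95.1% ± 0.698 (SD, n = 3) under the KO label and 92.6% ± 0.942 (SD, n = 3) in WT. The shares did not overlap, and the exact permutation test, two-sided, gave p = 0.1, the smallest possible with these numbers. In GENCODE 2744 exon bases of Cpt1b also belong to Gm44502 on the same strand, so its level is uncertain.

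Cpt2, the inner membrane enzyme that turns the carnitine esters back into acyl-CoA, differed in the opposite direction to Cpt1a. It had 57.1, 62.5 and 66.6 FPKM across the libraries labelled KO, and 80.6, 73.4 and 126 FPKM across WT. The 3 libraries labelled KO were the lowest and WT 3 was far above the rest, with a log2 difference of -0.54 over all libraries and -0.31 without WT 3. The ratio of Cpt1a to Cpt2 FPKM, which does not depend on how depth was scaled, was 0.641, 0.525 and 0.516 in the libraries labelled KO 1, KO 2 and KO 3, against 0.341, 0.374 and 0.174 in WT 1, WT 2 and WT 3. The transcripts differ in length, 4317 nt for Cpt1a and 1694 nt for Cpt2. This ratio was chosen after the values were seen and was not tested.

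Slc25a20, the carrier that swaps acylcarnitine for free carnitine across the inner membrane, followed Cpt2. It had 28.0, 31.6 and 33.9 FPKM in KO-labelled libraries and 38.9, 36.7 and 49.2 FPKM in WT libraries, with no overlap (log2 difference -0.40). Its ratio to Cpt2 was 0.502 ± 0.00912 (SD, n = 3) under the KO label and 0.458 ± 0.0586 (SD, n = 3) in WT, and overlapped. Crat, the carnitine acetyltransferase that buffers acetyl-CoA, had 91.3, 96.6 and 112 FPKM across the libraries labelled KO, and 114, 147 and 166 FPKM across WT. Its groups did not overlap (log2 difference -0.50). Slc22a5, the carnitine transporter of the plasma membrane, had between 19.2 and 21.9 FPKM in the libraries labelled KO and between 18.1 and 20.3 FPKM in WT, which overlapped (log2 difference 0.11).

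**Figure D3:**
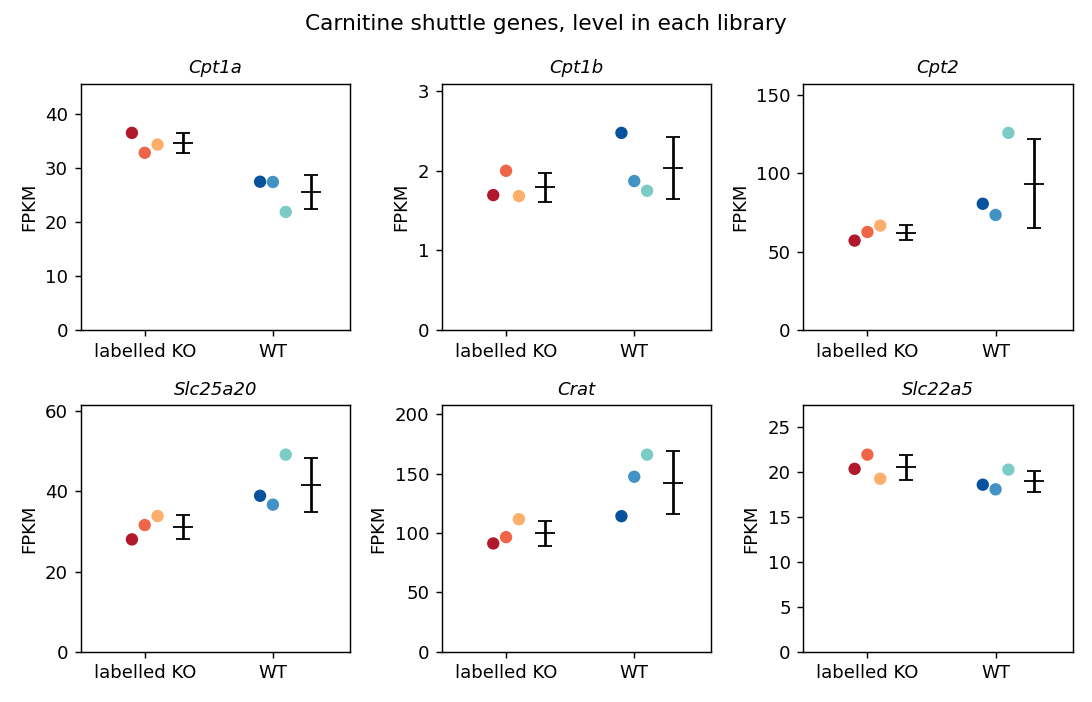
FPKM of the 6 carnitine shuttle genes in each library, with the mean and SD of each group beside the points (n = 3 each), libraries labelled KO on the left and WT on the right, libraries 1 to 3 from left to right in each. Cpt1a is higher in every library labelled KO (34.6 ± 1.86 FPKM, against 25.6 ± 3.22 FPKM in WT), while Cpt2, Slc25a20 and Crat are lower in every one.

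The acyl-CoA dehydrogenases catalyse the first oxidation of each cycle and are specialised by chain length. All 7 had negative log2 differences, from -0.52 to -0.042, although Acad10 had 0.0022 with median-ratio scaling. The median of the 7 was -0.29, and -0.14 without WT 3, with 6 lower. Acadm, for medium chains, was the most abundant. It had 141, 154 and 163 FPKM in KO-labelled libraries and 195, 181 and 296 FPKM in WT libraries, without overlap (log2 difference -0.52). Acadl, for long chains, had 94.7, 95.6 and 109 FPKM across the libraries labelled KO, and 122, 122 and 172 FPKM across WT. Those groups did not overlap either (log2 difference -0.46). Acadvl, for very long chains, had 80.2, 81.5 and 88.7 FPKM in KO-labelled libraries and 96.0, 88.4 and 139.8 FPKM in WT libraries. The library labelled KO 3 lay just above WT 2 in this gene, and the log2 difference was -0.34. The ratio of Acadm to Acadvl was 1.83 ± 0.0657 (SD, n = 3) under the KO label and 2.07 ± 0.0476 (SD, n = 3) in WT, without overlap. That of Acadl to Acadm was 0.653 ± 0.0278 and 0.627 ± 0.0459 (SD, n = 3 each), and overlapped. Acadvl exons share 1151 bases with Dvl2 on the opposite strand, and whether reads were assigned by strand is not given in the sources used here.

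Short-chain Acads had a log2 difference of -0.26, and its groups overlapped. Acad9, which also helps to assemble respiratory complex I, had -0.29. Both had more in the library labelled KO 3 than in WT 2. Acad11 had -0.24 and Acad10 -0.042, again with overlap. Acad10 was low, at 5.51 ± 0.390 FPKM in the libraries labelled KO and 5.71 ± 0.625 FPKM in WT (SD, n = 3 each).

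The later steps of the cycle had lower values in all 6 genes, of which 5 did not overlap (59.2% and 12.2% of all tested genes). Their median was -0.43, and -0.20 without WT 3. Hadha and Hadhb encode the subunits of the trifunctional protein of the inner membrane, which carries out the remaining steps on long chains. Their gene bodies face away from each other across the gap of 85 bases shown above, and their promoter windows share 228 of 300 bases. Hadha had 50.3, 49.3 and 55.3 FPKM across the libraries labelled KO, and 60.7, 58.0 and 75.5 FPKM across WT. Hadhb had 77.1, 80.7 and 82.0 FPKM in KO-labelled libraries and 109.6, 98.2 and 159 FPKM in WT libraries. Both were lower in every library labelled KO, Hadhb by more (log2 differences -0.57 for Hadhb and -0.31 for Hadha). The ratio of Hadha to Hadhb was 0.646 ± 0.0324 (SD, n = 3) under the KO label and 0.540 ± 0.0589 (SD, n = 3) in WT, without overlap. The 2 transcripts differ in length, 4017 nt for Hadha and 2045 nt for Hadhb, and the ratio was lowest in WT 3, at 0.476.

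The soluble enzymes of the matrix act on shorter chains. Hsd17b10, a hydroxyacyl-CoA dehydrogenase that is also a subunit of the mitochondrial ribonuclease P, had 81.1, 96.7 and 93.4 FPKM across the libraries labelled KO, and 109, 117 and 187 FPKM across WT (log2 difference -0.56). Echs1, the short-chain enoyl-CoA hydratase, was among the most abundant at 158 ± 15.2 FPKM in the libraries labelled KO and 229 ± 85.4 FPKM in WT (SD, n = 3 each). WT 3 had 328 FPKM, and the log2 difference was -0.19 without it and -0.48 with it. For Hadh, the hydroxyacyl-CoA dehydrogenase for shorter chains, the log2 difference was -0.39 with WT 3 and -0.14 without. Acaa2, the thiolase, had 68.2, 75.2 and 74.0 FPKM in KO-labelled libraries and 88.0, 74.0 and 111 FPKM in WT libraries. It was the member of these 6 whose groups overlapped.

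Unsaturated fatty acids need auxiliary enzymes that move or remove double bonds. Eci1, an enoyl-CoA isomerase, had the largest difference of the 31 genes. It had 79.8, 82.1 and 95.6 FPKM across the libraries labelled KO, and 110.3, 129 and 195 FPKM across WT. Every library labelled KO was below every WT library (log2 difference -0.71, SE 0.22, limma unadjusted p = 0.0151, adjusted p = 0.235), and without WT 3 the difference was -0.47. Eci2, an isomerase found in mitochondria and peroxisomes, had -0.25 with overlap. The ratio of Eci1 to Eci2 was 1.34 ± 0.237 under the KO label and 1.83 ± 0.213 in WT (SD, n = 3 each), and overlapped. Decr1, the mitochondrial dienoyl-CoA reductase, had 56.2, 55.7 and 60.7 FPKM in KO-labelled libraries and 75.3, 65.3 and 128 FPKM in WT libraries. Its groups did not overlap, and WT 3 held the highest value (log2 difference -0.57, and -0.28 without WT 3).

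Electrons from the acyl-CoA dehydrogenases pass through ETF. The 3 genes of this step had log2 differences between -0.52 and -0.39, and without WT 3 these were -0.29 for Etfa, -0.28 for Etfb and -0.19 for Etfdh. Etfb, which encodes the beta subunit and was the most abundant of the 31 genes, had 191, 190.0 and 187 FPKM across the libraries labelled KO, and 238, 224 and 376 FPKM across WT. The libraries labelled KO agreed closely with each other, at 189.5 ± 2.07 FPKM (SD, n = 3). Etfa, for the alpha subunit, had 143, 145 and 162 FPKM in KO-labelled libraries and 176, 190.1 and 268 FPKM in WT libraries. Neither gene overlapped between groups. Etfb shares 617 exon bases with Gm45233 on the same strand. Etfdh, which hands the electrons to ubiquinone, had 36.6, 37.9 and 42.1 FPKM across the libraries labelled KO, and 47.1, 42.0 and 67.5 FPKM across WT. WT 2 lay just below the library labelled KO 3 in this gene. The ratio of Etfa to Etfb was 0.792 ± 0.0636 in the libraries labelled KO and 0.767 ± 0.0723 in WT (SD, n = 3 each), which overlapped. That of Etfdh to Etfb was 0.205 ± 0.0174 and 0.188 ± 0.00921 (SD, n = 3 each), and overlapped too.

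The genes of control and side reactions were less uniform, with a median of -0.13 that was 0.0089 without WT 3. Ppara encodes the nuclear receptor PPARalpha and was low throughout. It had 3.15, 3.35 and 2.00 FPKM in KO-labelled libraries and 2.60, 2.89 and 2.77 FPKM in WT libraries, with overlap and a log2 difference of 0.011. Mlycd, which removes the inhibitor malonyl-CoA, had 21.8, 22.0 and 25.1 FPKM across the libraries labelled KO, and 27.9, 25.9 and 42.3 FPKM across WT. Its groups did not overlap (log2 difference -0.43). Ucp3, an uncoupling protein homologue known from muscle and brown fat, had 11.8, 10.6 and 8.93 FPKM in KO-labelled libraries and 11.5, 18.2 and 17.5 FPKM in WT libraries. The library labelled KO 1 lay just above WT 1, and the log2 difference of -0.53 was -0.45 without WT 3. The thioesterases Acot2 and Acot13 had -0.081 and -0.17, and Acss1, the mitochondrial acetyl-CoA synthetase, had -0.087, all with overlap. Acot2 has a near-identical paralogue, Acot1, and how reads were divided between them is not given in the sources used here.

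Acot1, a cytosolic thioesterase, was one of the PPAR target genes listed outside the mitochondrial pathway and differed in the opposite direction. It had 9.14, 11.6 and 7.17 FPKM across the libraries labelled KO, and 3.57, 1.04 and 0.496 FPKM across WT (log2 difference 2.07, limma unadjusted p = 0.00148, adjusted p = 0.223), and it passed the adjusted threshold with library weights and without WT 1. Like the epithelial markers below, its highest WT value was in WT 1. Of 8 tested genes in that list 5 were lower, with a median of -0.23 that was -0.37 without WT 3 but above 0 without WT 2 (0.073) and with library weights (0.043). Plin2, a lipid droplet coat protein, had 116, 119 and 137 FPKM in KO-labelled libraries and 155, 188 and 189 FPKM in WT libraries (log2 difference -0.51). Angptl4, an inhibitor of lipoprotein lipase, had 123, 132 and 100.4 FPKM across the libraries labelled KO, and 176, 186 and 144 FPKM across WT (log2 difference -0.50). The groups did not overlap in either of these 2 genes. Both passed the adjusted threshold with library weights, where 3.66% of all tested genes passed as lower.

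Among neighbouring steps of fatty acid use no gene passed limma's adjusted threshold over all libraries. With library weights Ehhadh, Scp2, Oxct1, Ivd, Acadsb, Acacb, Prkaa1 and the fatty acid transporter Cd36 did, all lower, with adjusted p between 0.0390 and 0.0493. In that setting 3.66% of all tested genes passed as lower. Slc27a2 passed without WT 1, with higher values (adjusted p = 0.0108), where 482 of the 12539 tested genes passed. Of 14 tested genes of peroxisomal oxidation 12 were lower (median -0.26, and -0.12 with 9 lower without WT 3), led by Ehhadh, the peroxisomal bifunctional enzyme, at 24.9, 16.3 and 27.0 FPKM in KO-labelled libraries and 49.5, 34.4 and 60.2 FPKM in WT libraries. Its log2 difference of -1.04 was larger than that of any of the 31 mitochondrial genes. Scp2, a sterol carrier with a thiolase form, had -0.61 and Hsd17b4, a peroxisomal multifunctional enzyme, -0.34. All 4 tested ketone body genes were lower (median -0.35, and -0.15 without WT 3), with Oxct1 at -0.39 and Acat1 at -0.46. Of the 6 tested dehydrogenases of amino acid and related breakdown that also feed electrons to ETF, 5 were lower (median -0.37, and -0.15 without WT 3). Ivd, of leucine breakdown, had -0.53 and Acadsb, of isoleucine breakdown, -0.40, while Sardh, the sarcosine dehydrogenase, had 0.27.

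Genes that make malonyl-CoA and sense energy had a median of -0.21, with 7 of 9 lower. Acacb, the acetyl-CoA carboxylase at the mitochondrial surface, had 38.9, 33.1 and 27.1 FPKM across the libraries labelled KO, and 50.3, 49.9 and 40.9 FPKM across WT. Its groups did not overlap (log2 difference -0.51). Acaca, the cytosolic form, had -0.48, and Prkaa1, a catalytic subunit of AMP-activated kinase, had -0.30. In fatty acid uptake and activation 7 of 11 tested genes were lower, a share near the 59.2% of all tested genes, with a median of -0.18. Slc22a4, an organic cation transporter, had -0.28 and Acsl5, an acyl-CoA synthetase, -0.36. Slc27a2, an acyl-CoA synthetase of very long chains, had 2.29, and its values followed the epithelial markers (9.21, 9.94 and 4.30 FPKM across the libraries labelled KO, and 3.84, 0.040 and a listed 0 FPKM across WT). Transcriptional regulators showed no common direction: 6 of 13 were lower, with a median of 0.0030. Tfam, which maintains mitochondrial DNA, had -0.36, Pparg -0.33 and the coactivator Ppargc1b -0.17.

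Other mitochondrial genes also had lower values in the libraries labelled KO. All 18 genes of a list of citrate cycle, respiratory chain and membrane proteins were lower (median -0.35, and -0.13 with 17 lower without WT 3), among them the chaperone Hspd1 at -0.55, the complex I subunit Ndufs1 at -0.48 and the citrate synthase Cs at -0.46. These 3 passed the adjusted threshold with library weights (3.66% of all tested genes passed as lower) and not over all libraries. By library, the median deviation of the 31 genes was -0.24, -0.20 and -0.12 in the libraries labelled KO 1, KO 2 and KO 3, and -0.0032, -0.029 and 0.56 in WT 1, WT 2 and WT 3. That of the 18 other mitochondrial genes was -0.26, -0.21 and -0.12 in the libraries labelled KO, and 0.026, -0.11 and 0.61 in WT. By this median the 2 lists stood close together in every library, though in WT 2 alone the oxidation genes were above the other mitochondrial genes by more than 0.05. Unlike that of the 31 genes, the share of the 18 genes in the FPKM sum overlapped between the groups. It was 0.756%, 0.765% and 0.794% in the libraries labelled KO, and 0.811%, 0.750% and 0.907% in WT, lowest in WT 2. All 12 adipocyte markers were lower (median -0.46, and -0.35 with 11 lower without WT 3). Together they held 38127, 39295 and 46588 FPKM under the KO label, against 55788, 52907 and 94911 FPKM for WT. These sums ranked the libraries as the summed FPKM of the 31 genes did, but the median deviations did not. For the adipocyte markers that median was -0.31 in KO 2, below KO 1 (-0.30), and 0.031 in WT 1, below WT 2 (0.038). Under quantile normalization the medians were -0.21 for the 31 genes, -0.079 for the other mitochondrial genes (16 of 18 lower) and -0.053 for the adipocyte markers (7 of 12 lower).

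**Figure D4:**
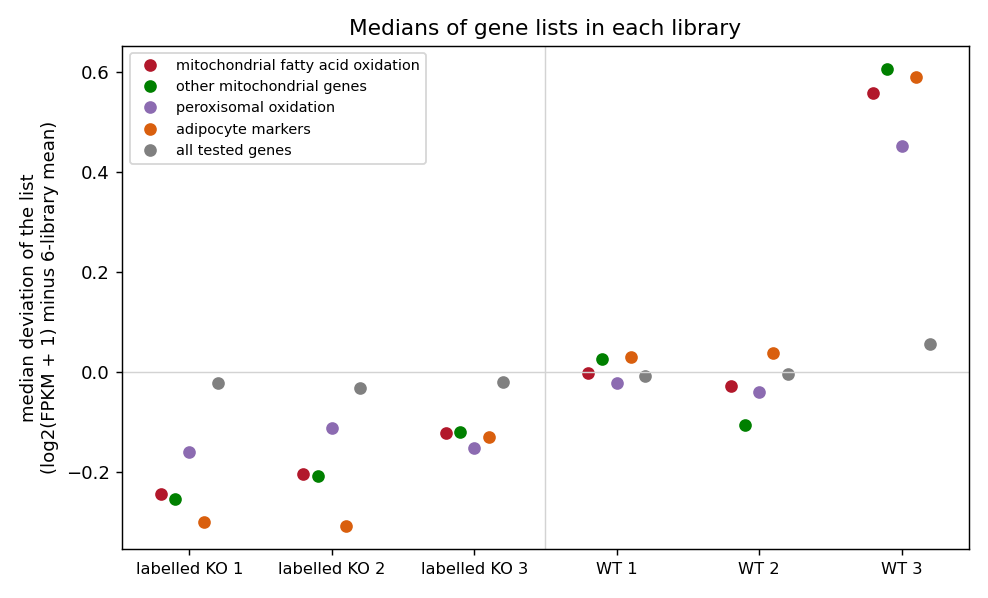
Median deviation of 5 gene lists in each library, as log2(FPKM + 1) minus the mean of the 6 libraries, with the libraries labelled KO on the left. The fatty acid oxidation genes lie at -0.24, -0.20 and -0.12 in the libraries labelled KO and at 0.56 in WT 3, close to the other mitochondrial genes and the adipocyte markers, while all tested genes stay near 0.

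Markers of other cell types also differed between the groups in these libraries. All 8 epithelial markers were higher in the libraries labelled KO, with summed levels of 189.7, 199 and 98.0 FPKM in the libraries labelled KO 1, KO 2 and KO 3, and of 84.5, 16.3 and 8.24 FPKM in WT 1, WT 2 and WT 3. The 11 measured multiciliated cell markers summed to 91.3, 93.4 and 42.3 FPKM in the libraries labelled KO and to 34.3, 0.963 and 1.37 FPKM in WT, with 2 of the 11 listed at 0 in WT 2 and 5 in WT 3. Foxj1, the defining transcription factor of these cells, had 44.2, 43.2 and 20.0 FPKM in the libraries labelled KO, and 13.9, 0.034 and a listed 0 FPKM in WT. Among pairs of a library labelled KO and a WT library, KO 3 and WT 1 had the most similar epithelial sums. Between these, 27 of the 31 oxidation genes were lower in the library labelled KO 3 (52.3% of all tested genes were). The median was -0.17, against -0.012 over all tested genes. In the other pairs with WT 1 or WT 2, between 20 and 24 of the 31 genes were lower (50.9% to 57.4% of all tested genes). In the pairs with WT 3 between 27 and 30 were (55.7% to 57.1%). Between WT 1 and WT 2 the median of the 31 genes was 0.082 higher in WT 1, which also had the higher epithelial sum. These are comparisons of single libraries, and the part of epithelial RNA in the differences of the 31 genes was not tested. Macrophage markers had a median log2 difference of -0.24 (7 of 8 lower), and endothelial markers 0.090 (2 of 6 lower), which was -0.32 without WT 3. With a score of the multiciliated markers as a covariate, which is partly confounded with group, the median difference was -0.15 and 24 of 31 genes were lower, 0 of them at an unadjusted p under 0.05 (0.774% of tested genes).

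Brown fat and muscle have more of this pathway than white fat. Of the brown fat markers Ucp1 stayed at or below 0.134 FPKM and Zic1 was listed at 0 in every library. Cox8b, a cytochrome oxidase subunit, was detected throughout, at 11.8, 12.9 and 17.3 FPKM across the libraries labelled KO, and 30.2, 22.8 and 59.7 FPKM across WT, without overlap (log2 difference -1.26, limma unadjusted p = 0.00807, adjusted p = 0.223). Cidea, a lipid droplet protein, had 2.29, 1.76 and 1.70 FPKM in KO-labelled libraries and 3.36, 1.71 and 7.61 FPKM in WT libraries. Cox7a1 had 10.8, 9.22 and 4.28 FPKM across the libraries labelled KO, and 6.41, 2.37 and 11.1 FPKM across WT (log2 difference 0.36). Ppargc1a had a log2 difference of 0.0060, so 2 of the 4 tested brown fat markers were lower and 2 higher. The part of brown fat RNA in the results was not tested. The summed level of the 8 brown fat markers was 27.3, 26.9 and 25.9 FPKM in the libraries labelled KO 1, KO 2 and KO 3, and 43.0, 29.4 and 81.6 FPKM in WT 1, WT 2 and WT 3. Cpt1b, the muscle-type form, whose level is uncertain, had 1.75 FPKM in WT 3, the library with the highest sum of muscle markers. That was the lowest of the WT libraries but above those labelled KO 1 and KO 3 (1.70 and 1.68 FPKM). The part of muscle RNA in the WT 3 values was not tested.

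The excess in WT 3 went with transcript length. Over the 31 genes the WT 3 deviation and log2 transcript length had a Pearson r of -0.61, a description over genes that share 1 library. The 6 genes under 1500 nt had a median WT 3 deviation of 0.69 (0.39 over all tested genes of that length), the 15 between 1500 and 2500 nt had 0.57 (0.16), and the 10 longer ones had 0.20 (-0.065). Cpt1a, the longest at 4317 nt, was the gene furthest below its mean in WT 3, at -0.42. The differences between groups followed the same order, as they did over all tested genes. Their medians were -0.49, -0.40 and -0.10 in the short, middle and long genes, against -0.19, -0.093 and -0.0043 over all tested genes. Without WT 3 the medians of the oxidation genes were -0.29, -0.19 and -0.0089. After each library was corrected for length the median of the 31 genes was -0.29, with 27 lower, and Cpt1a had 0.41.

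**Figure D5:**
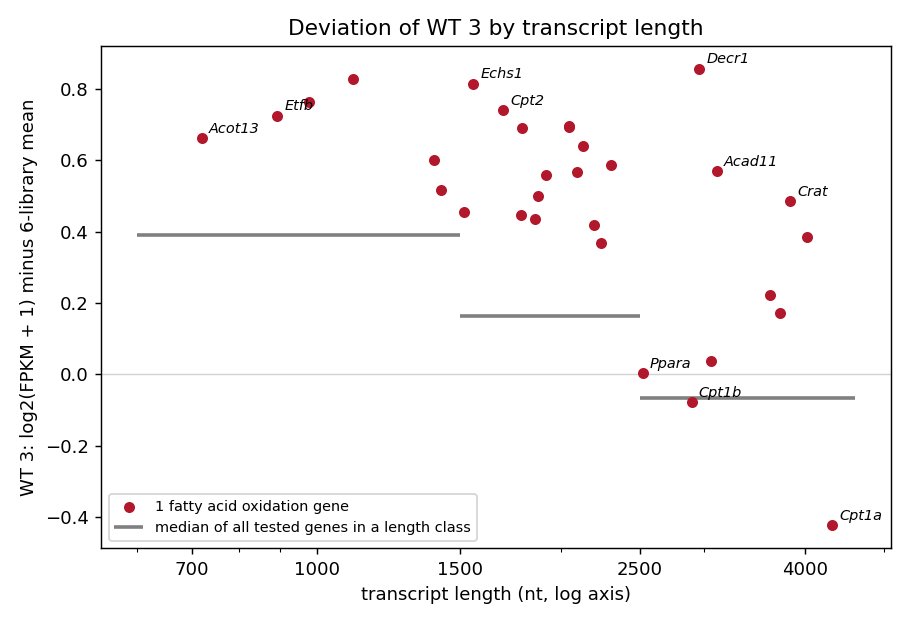
Deviation of WT 3 from the mean of the 6 libraries (log2(FPKM + 1)) against transcript length on a log axis, 1 point per fatty acid oxidation gene, with the median of all tested genes in 3 length classes as bars. The shorter genes lie highest, with a median of 0.69 under 1500 nt, all 6 above the bar of their class, and Cpt1a lies lowest at -0.42.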

How the data were processed

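Sequencing libraries of epididymal fat RNA (6 in all) were built with a stranded mRNA kit, per the labels' protocols. Build mm10 and the tools STAR 2.5.4, Cufflinks and Cuffdiff 2.2.1 are named in the submitters' processing notes. Annotation, depth scaling and the strand setting of the counting were not given in the sources used here. The deposited table holds 1 column per library, read as FPKM. No header names the unit, which was inferred from the tools named and from the values. It has no counts, so count-based tests were not run. Total depth is unknown. The smallest values put depth relative to WT 1 at 0.824, 0.651 and 0.946 in the libraries labelled KO 1, KO 2 and KO 3 and at 0.790 in WT 2, with no clear step in WT 3.

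Of 21853 lines 24 repeated a symbol, which left 21829 genes. Those averaging 1 FPKM or more, 12539 genes, were tested with limma 3.58.1 (R 4.3.3) on log2(FPKM + 1), libraries labelled KO minus WT, with a variance trend and Benjamini-Hochberg adjustment over all of them at 0.05. Differences are on this scale and understate the change of low genes. Deviations are from the mean of the 6 libraries. Ratios and shares were computed with Python 3.11.15, and shares and Zfp251 FPKM were tested with exact permutation tests in scipy 1.17.1. The code was tested on simulated data. Transcript lengths and positions are from GENCODE vM21 on GRCm38, and promoter windows from RefSeq on GRCm38.p6.

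The genes and lists were chosen with earlier results of these data known. Values in every library are given for 14 genes chosen by role and for the 2 with the smallest p in each role. In each other pathway list the 3 with the smallest p are named, apart from 1 gene that is not reported here. Cd36, Cox8b, Cidea, Cox7a1 and Ppargc1a were named after their values were seen. Alternatives were another pseudocount (0.1), no filter, a filter at 5 FPKM, median-ratio scaling, quantile normalization, a length correction, library weights, a multiciliated marker covariate, a replicate block, and each library left out.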

Additional observations from a re-analysis of the deposited data

How the results depend on the processing

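The median difference of the 31 genes stayed negative under all 15 alternatives. The replicate block and the dropped filter could not alter it. It was -0.15 with the multiciliated covariate, and between -0.47 (without WT 2) and -0.19 (without WT 3) when 1 library was left out. Genes past limma's adjusted threshold numbered 0 of 12539 over all libraries, with 1700 at an unadjusted p under 0.05, and 970 with library weights. When 1 library was left out they numbered 0 to 482, with 482 without WT 1, of which 0 were among the 31. Zfp251, at an adjusted p of 0.223 over all libraries, had 0.0367 to 1.00 over the alternatives. The Cpt1a share differed by 2.41 percentage points, and by 1.95 to 2.89 with 1 library left out.

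Some genes turned sign, and the cause was not tested. Acad10 had 0.0022 with median-ratio scaling, Acot13 0.092 with the length correction and Ppara -0.19 with quantile normalization. With library weights Acad10 had 0.070, Acad11 0.11, Acot2 0.058, Acot13 0.099 and Acss1 0.13. With the covariate Acads had 0.0054, Acad10 0.0062, Acad11 0.060, Acot2 0.050, Acss1 0.13, Pparg 0.21, Ppara -0.12 and Slc27a2 -0.080. With 1 library left out, Acad10 ranged from -0.085 to 0.033, Ppara from -0.090 to 0.18, Acot2 from -0.20 to 0.11, Acot13 from -0.36 to 0.12 and Acss1 from -0.22 to 0.0027.

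Same-numbered libraries correlated in their deviations from the group means at r = 0.23, -0.20 and 0.22, and differently numbered ones at r between -0.48 and 0.43. These values are too few to decide whether the numbers pair libraries. With the replicate block 0 genes passed. The median stayed at -0.39, which the block cannot change, since every number occurs in both groups. How far depth limits the low genes cannot be given, since the table holds no counts.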
